A study of Homo sapiens with 12 samples.

Results

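The genes described here are 34 members of the amino acid stress response governed by the transcription factor ATF4, picked by symbol from a written list. The list held 7 transcription factors, 7 feedback and stress effectors, 6 enzymes of amino acid and one-carbon metabolism, 7 amino acid transporters and 7 genes of tRNA charging and tRNA export. Each gene was represented by its probe set with 1 gene symbol, and by the brightest over the 12 arrays where it had several. All 34 were measured, out of 18417 genes on the array.

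Expression had been profiled in EA.hy926 cells, an established human hybrid of umbilical vein endothelium and the lung carcinoma line A549. There were 4 groups of 3 biological replicates, each on 1 array. Lo pemetrexed cells had been adapted to M199 medium with 23 nM folic acid and received 0.5 uM pemetrexed for 48 h, and Lo control cells came from the same low-folate culture without the drug. Hi pemetrexed cells had been kept in parallel at 9 uM folic acid and received the same dose for the same time, and Hi control cells were their untreated counterpart. Pemetrexed is an antifolate that blocks thymidylate synthase and folate-dependent purine synthesis. All groups were confluent when treated, and all media contained fetal calf serum and added non-essential amino acids. Lo and Hi cells were separately kept cultures of 1 line, so comparisons between them also hold any other difference between those cultures.

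When amino acids run short, or the endoplasmic reticulum or heme supply is disturbed, 1 of 4 kinases phosphorylates the translation factor eIF2 alpha, which lowers protein synthesis in general while ATF4 mRNA is translated more. ATF4 protein pairs with C/EBP proteins and binds composite C/EBP-ATF elements (CARE) at genes that import and make amino acids and charge tRNAs. Further targets feed back on the response, among them TRIB3, an inhibitor of ATF4, and PPP1R15A, which directs the dephosphorylation of eIF2 alpha.

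The 12 arrays had median log2 levels of 7.24 to 7.33, and precision is limited by how few arrays there were. Of the 12 arrays, 2 stood apart from their labels. On the first principal component, with 61.1% of the variance, the array labelled Lo control replicate 3 scored -19.3, within the range of the Hi arrays (-20.1 to -17.8), whereas its fellow Lo controls scored 7.18 and 6.75. The array labelled Hi control replicate 3 scored 8.94, and the Lo pemetrexed arrays scored 30.4 to 32.2. Whether the labels of these 2 arrays were exchanged cannot be told from the files, and an exchange would change every 12-array value that uses a control group. Both kept their labels. The numbers of members called in each comparison are given with all 12 arrays and with the 10 arrays that remain without them. Other values are from all 12 arrays unless stated, so they rest on these 2 arrays wherever a control group enters. Lo pemetrexed against Hi pemetrexed does not use the levels of these 2 arrays, and there they enter only the estimate of the spread.

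The CARE sequence was looked for in the RefSeq promoter windows (GRCh38.p14, 300 bases long, beginning 250 bases before the annotated start) of the 30 members that had one. The letters TGATGNAA on either strand occurred in 11 of the 30 windows (36.7%), against 511 of the 14239 genes with a window (3.59%). The members were listed as genes of the ATF4 pathway, so this share is a description of the list. The cyclic AMP response element TGACGTCA was found in 1 of the 30 windows (3.33%), against 442 of 14239 (3.1%). In 7 members the CARE letters lay upstream of the start. They are printed below for 4 of these members, with the PPP1R15A element beside them. Each sequence runs 5′ to 3′ on the strand of the gene, with the matched letters in capitals.
ATF3 (chr1:212565176-212565263, plus strand): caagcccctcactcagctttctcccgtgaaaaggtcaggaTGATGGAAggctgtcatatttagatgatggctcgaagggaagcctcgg
CHAC1 (chr15:40953222-40953309, plus strand): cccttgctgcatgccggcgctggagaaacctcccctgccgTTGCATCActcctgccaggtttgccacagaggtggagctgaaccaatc
ASNS (chr7:97872429-97872516, minus strand): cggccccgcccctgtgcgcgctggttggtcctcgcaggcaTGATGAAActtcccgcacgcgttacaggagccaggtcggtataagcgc
AARS1 (chr16:70289646-70289733, minus strand): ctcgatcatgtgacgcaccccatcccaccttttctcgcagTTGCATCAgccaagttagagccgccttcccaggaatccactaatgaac
PPP1R15A (chr19:48872323-48872410, plus strand): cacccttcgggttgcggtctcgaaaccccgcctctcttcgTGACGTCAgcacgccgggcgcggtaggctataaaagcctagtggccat

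Counted from the annotated start, the first base of the CARE match lay at -191 in ATF3, -209 in CHAC1, -187 in AARS1 and -68 in ASNS, and that of the PPP1R15A element at -58. The remaining 3 upstream matches are shown with 10 bases on each side.
CEBPG (chr19:33374061-33374088, plus strand): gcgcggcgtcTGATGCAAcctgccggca
SLC1A5 (chr19:46784894-46784921, minus strand): aggaagtggcTGATGCAAgctgtccagg
GARS1 (chr7:30594835-30594862, plus strand): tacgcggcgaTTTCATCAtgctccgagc
In SLC3A2, SLC7A1, SLC1A4 and MARS1 the letters lay across or just after the start. A match is a run of letters and was not tested for binding. NUPR1, PSPH, ALDH1L2 and SLC7A11 had no window here.

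Whether pemetrexed engaged this response in folate-restricted cells was examined first, by Lo pemetrexed against Lo control arrays. Of the 34 members, 16 rose and 0 fell (limma, Benjamini-Hochberg adjusted p under 0.05 over all genes), where 5.6% of all genes rose and 5.14% fell. The median log2 change was 0.40 over the members and 0.02 over all genes. With 10 arrays 17 rose and 0 fell, against 5.21% and 5.74% of all genes, and 15 of these were the same members. On all 3 Lo pemetrexed arrays, 22 members (64.7%) lay above all 3 Lo control arrays, as did 15.7% of all genes. Moreover 19 members (55.9%) lay above all 9 other arrays, as did 9.37% of all genes. At least 1 member rose in every subgroup. These were 4 of 7 transcription factors, 4 of 7 feedback and stress effectors and 1 of 6 enzymes. The transporters gave 3 of 7 and the tRNA genes 4 of 7. Endothelial markers moved as well, with 4 of 8 lower in treated Lo cells where 5.14% of all genes were, and their part in these changes was not tested.

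**Figure D1:**
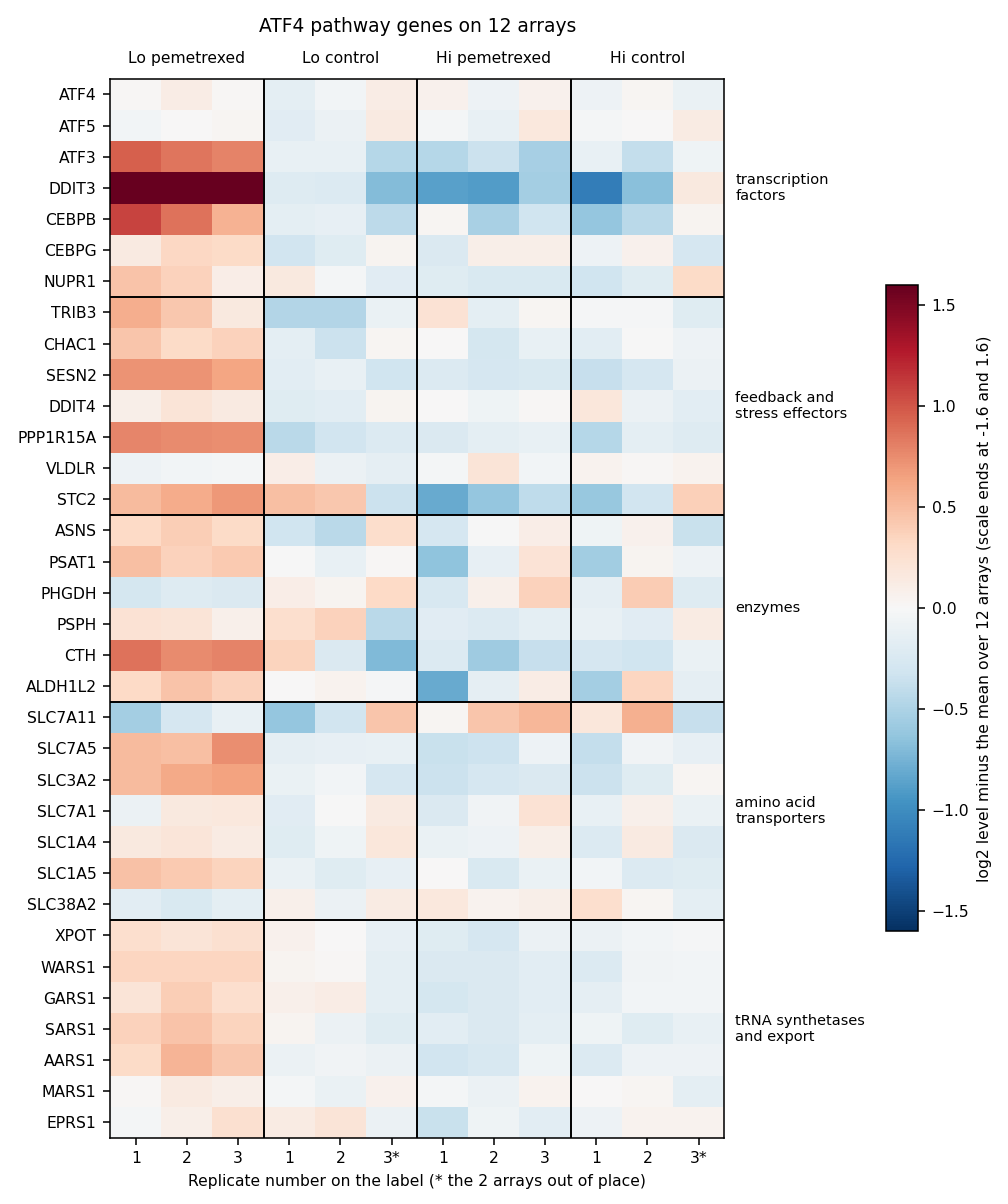
Log2 level of each of the 34 members (rows, by subgroup) on each of the 12 arrays (columns, by group and replicate number), minus the gene's mean over the 12 arrays. The 3 Lo pemetrexed arrays are red for most transcription factors, feedback genes and tRNA genes, and their DDIT3 values exceed the upper end of the colour scale. The starred Lo control array is blue for STC2 and PSPH where its fellow Lo controls are red.

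Among the transcription factors, DDIT3 (CHOP), a C/EBP family factor of prolonged stress, moved furthest. It stood at 11.23, 11.18 and 11.31 on the Lo pemetrexed arrays and at 9.35, 9.34 and 8.87 on the Lo control arrays, on the log2 scale. The Hi pemetrexed arrays gave 8.69, 8.67 and 9.02, and the Hi control arrays 8.46, 8.89 and 9.72. All Lo pemetrexed arrays were thus far above the highest of the others. The Lo control group overlapped the Hi groups only through the arrays that stood apart, Lo control replicate 3 at 8.87 and Hi control replicate 3 at 9.72. With 10 arrays DDIT3 was higher in Lo control than in Hi control cells, by 0.67 ± 0.14 (limma, adjusted p = 0.014). DDIT3 rose by 2.06 ± 0.24 (SE) on the log2 scale in treated Lo cells, a 4.16-fold change (limma, adjusted p = 0.000235), and by 1.90 ± 0.13 with 10 arrays. The annotated DDIT3 gene overlaps its neighbour MARS1 by 65 bases on chromosome 12, and MARS1 itself changed by 0.11 ± 0.08 (adjusted p = 0.452).

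ATF3, a member of the ATF/CREB family that can act as a repressor and is also an immediate early gene, read 8.42, 8.31 and 8.25 on the Lo pemetrexed arrays, against 7.34, 7.34 and 7.0 on the Lo control arrays. Its Hi pemetrexed values were 7.01, 7.11 and 6.93, and its Hi control values 7.34, 7.08 and 7.39, so that no other array came near the treated Lo cells. The rise in treated Lo cells was 1.10 ± 0.11 (limma, adjusted p = 6.12e-05). CEBPB, a C/EBP partner of ATF4, read 11.70, 11.49 and 11.17 in Lo pemetrexed cells against 10.46, 10.49 and 10.20 in Lo control cells, and rose by 1.07 ± 0.18 (limma, adjusted p = 0.00264). These groups did not overlap, although the treated arrays were more spread than their controls.

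CEBPG, a heterodimer partner of ATF4, rose by less. Its levels were 9.77, 9.95 and 9.93 in Lo pemetrexed cells and 9.31, 9.43 and 9.66 in Lo control cells, groups that came close but did not overlap. The change was 0.42 ± 0.12 (limma, adjusted p = 0.0425), and 0.51 ± 0.11 with 10 arrays (adjusted p = 0.00949). This call sat at the threshold: it was lost without 8 of the 12 arrays, each left out on its own, with an adjusted p of up to 0.139.

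ATF4 itself, whose control is largely translational, stood at 11.20, 11.30 and 11.20 on the Lo pemetrexed arrays and at 11.02, 11.13 and 11.30 on the Lo control arrays. Those groups overlapped, and the change of 0.08 ± 0.08 (limma, adjusted p = 0.632) had a 95% interval of -0.10 to 0.26. A second ATF4 probe set, dimmer and not used in the test, read 9.78, 9.63 and 10.15 in Lo pemetrexed cells and 10.00, 9.73 and 9.87 in Lo control cells, again overlapping. The array measures mRNA and not ATF4 protein. ATF5, a related factor also under translational control, changed by 0.04 ± 0.10 (adjusted p = 0.869). NUPR1, a stress-induced chromatin protein, changed by 0.33 ± 0.15 without passing (adjusted p = 0.202).

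Of the feedback and stress effectors 4 of 7 rose with 12 arrays and 5 with 10. PPP1R15A (GADD34), the regulatory subunit that brings protein phosphatase to eIF2 alpha, read 11.61, 11.59 and 11.58 on the Lo pemetrexed arrays against 10.40, 10.53 and 10.61 on the Lo control arrays. The Hi pemetrexed arrays gave 10.60, 10.68 and 10.71 and the Hi control arrays 10.37, 10.68 and 10.62. The 3 treated Lo arrays were nearly equal and well above the 9 others, and the rise was 1.08 ± 0.09, or 2.12-fold (limma, adjusted p = 1.48e-05).

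SESN2, a sensor of leucine that restrains mTORC1 and is also a target of p53, read 10.55, 10.55 and 10.47 in Lo pemetrexed cells against 9.66, 9.72 and 9.52 in Lo control cells. It rose by 0.89 ± 0.08 (limma, adjusted p = 3.88e-05), and its 9 arrays outside the treated Lo group lay between 9.46 and 9.74. TRIB3, a pseudokinase that binds and inhibits ATF4, read 10.94, 10.78 and 10.51 in Lo pemetrexed cells and 9.88, 9.88 and 10.25 in Lo control cells. The value of 10.25 came from the Lo control array that stood apart, and the Hi pemetrexed arrays, at 10.59, 10.20 and 10.39, overlapped the treated Lo cells. TRIB3 rose by 0.74 ± 0.13 (limma, adjusted p = 0.00389) and, with 10 arrays, by 0.86 ± 0.13.

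CHAC1, an enzyme that degrades glutathione, read 8.79, 8.65 and 8.71 in Lo pemetrexed cells against 8.19, 8.0 and 8.38 in Lo control cells. It rose by 0.53 ± 0.10 (limma, adjusted p = 0.00556), with no overlap between treated Lo cells and any other array. The 3 other members of this subgroup did not pass with 12 arrays. DDIT4 (REDD1), an inhibitor of mTORC1, changed by 0.26 ± 0.09 (adjusted p = 0.113), and passed with 10 arrays at 0.33 ± 0.09 (adjusted p = 0.0309). VLDLR, a lipoprotein receptor, stood at -0.01 ± 0.09, and the secreted glycoprotein STC2 at 0.42 ± 0.24 with 12 arrays and 0.15 ± 0.12 with 10.

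**Figure D2:**
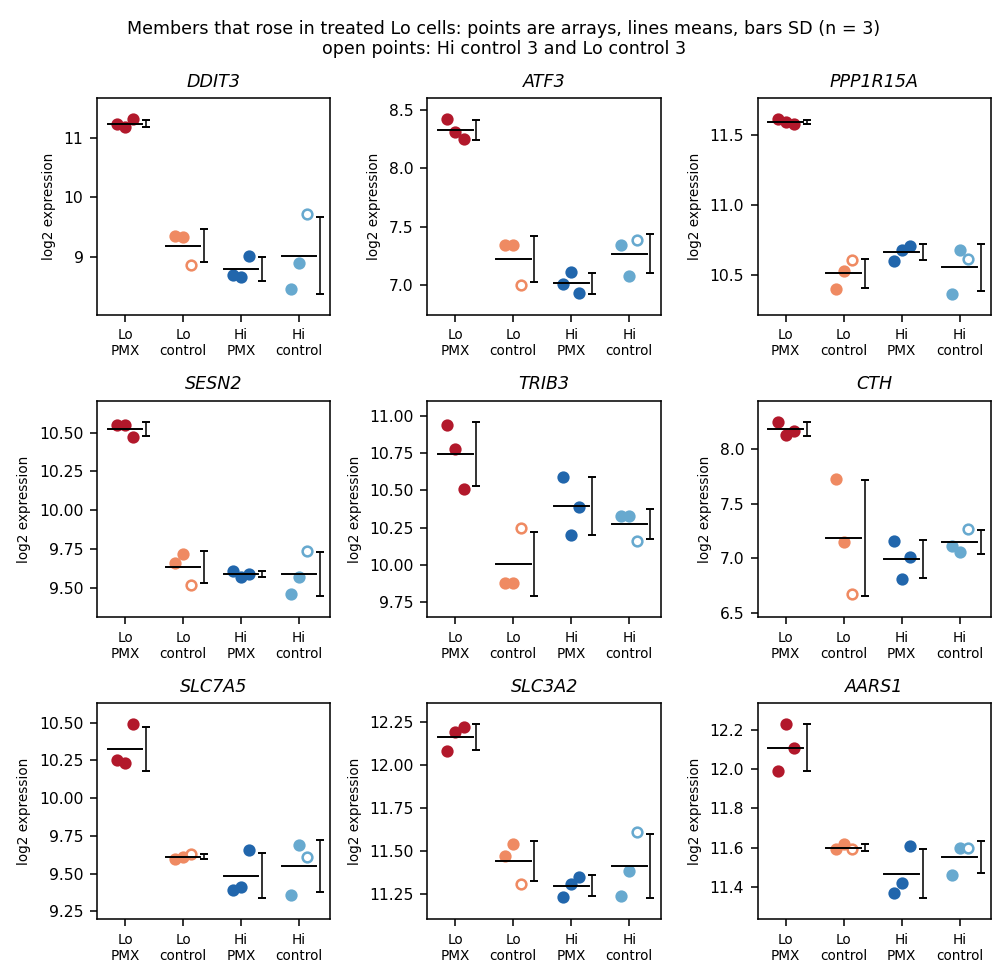
Log2 expression of 9 members that rose in treated Lo cells, by group. Points are arrays, horizontal lines are group means, vertical bars are SD (n = 3), and open points are the arrays labelled Lo control 3 and Hi control 3. The 3 Lo pemetrexed points lie above all other arrays in every panel but TRIB3, where a Hi pemetrexed array reaches 10.59.

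Of the enzymes, CTH, which makes cysteine from cystathionine, was the single one called with 12 arrays. It read 8.25, 8.13 and 8.17 on the Lo pemetrexed arrays, against 7.73, 7.15 and 6.67 on the Lo control arrays. The treated arrays were tight and the controls were widely spread, with the lowest value on the array that stood apart. The rise of 1.00 ± 0.19 (limma, adjusted p = 0.00578) became 0.75 ± 0.14 with 10 arrays (adjusted p = 0.00549).

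ASNS, asparagine synthetase, depended on that array as well. Its levels were 8.49, 8.57 and 8.48 in Lo pemetrexed cells, and 7.85, 7.74 and 8.45 in Lo control cells, where the last value belongs to Lo control replicate 3. The change was 0.50 ± 0.17 with 12 arrays (limma, adjusted p = 0.0761) and 0.72 ± 0.10 with 10 arrays (adjusted p = 0.000869). ASNS thus did not pass with all arrays and passed without the 2 that stood apart.

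The 3 enzymes of serine synthesis did not move together. PSAT1, the aminotransferase of that pathway, read 9.81, 9.70 and 9.75 in Lo pemetrexed cells against 9.32, 9.21 and 9.35 in Lo control cells. Its groups did not overlap, but the change of 0.46 ± 0.19 missed the threshold (limma, adjusted p = 0.151). PHGDH, the first enzyme, read 9.73, 9.80 and 9.78 against 10.11, 10.05 and 10.33, so that all treated Lo cells lay below their controls. Its change of -0.39 ± 0.17 missed the threshold too (adjusted p = 0.178). PSPH, the last enzyme, changed by 0.10 ± 0.16, and by -0.15 ± 0.08 with 10 arrays, and passed in neither. The mitochondrial folate dehydrogenase ALDH1L2 changed by 0.37 ± 0.22 (adjusted p = 0.36).

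The transporters split. SLC7A5 (LAT1), which carries leucine and other large neutral amino acids, read 10.25, 10.23 and 10.49 on the Lo pemetrexed arrays against 9.60, 9.61 and 9.63 on the Lo control arrays. SLC3A2 (CD98 heavy chain), its partner subunit, read 12.08, 12.19 and 12.22 against 11.47, 11.54 and 11.31. In both genes every treated Lo array lay above the 9 others. The log2 change was 0.71 ± 0.10 for SLC7A5 (limma, adjusted p = 0.000954) and 0.72 ± 0.10 for SLC3A2 (adjusted p = 0.000516).

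SLC1A5 (ASCT2), a glutamine transporter, read 10.82, 10.77 and 10.71 in Lo pemetrexed cells and 10.24, 10.15 and 10.22 in Lo control cells, and rose by 0.56 ± 0.08 (limma, adjusted p = 0.000675). A second, dimmer SLC1A5 probe set read 7.89, 7.69 and 7.39 in Lo pemetrexed cells and 7.61, 7.60 and 7.64 in Lo control cells. There the groups overlapped, and with the mean of both probe sets the change was 0.30 ± 0.08 (adjusted p = 0.0311).

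SLC7A11 (xCT), the cystine importer that NRF2 also controls, read 10.80, 11.08 and 11.22 in Lo pemetrexed cells and 10.73, 11.04 and 11.79 in Lo control cells. Its change was -0.15 ± 0.27 with 12 arrays and 0.15 ± 0.17 with 10, and passed in neither. SLC38A2 (SNAT2), a sodium-coupled carrier of small neutral amino acids, read 12.72, 12.64 and 12.73 against 12.97, 12.80 and 13.02. It was the one member whose treated Lo arrays lay below all 9 others, as they did for 8.78% of all genes. That margin was below the printed digits, since Lo pemetrexed replicate 3 and Hi control replicate 3 both read 12.73. The SLC38A2 change of -0.23 ± 0.10 did not pass (limma, adjusted p = 0.183). The cationic amino acid transporter SLC7A1 changed by 0.09 ± 0.12 and the serine and alanine carrier SLC1A4 by 0.19 ± 0.11, neither past the threshold.

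Of the tRNA genes 4 of 7 rose with 12 arrays and 3 with 10. AARS1, the cytosolic alanyl-tRNA synthetase, read 11.99, 12.23 and 12.11 in Lo pemetrexed cells against 11.59, 11.62 and 11.59 in Lo control cells, and rose by 0.51 ± 0.08 (limma, adjusted p = 0.00195). SARS1, for serine, read 11.65, 11.73 and 11.63 against 11.32, 11.18 and 11.08, and rose by 0.47 ± 0.07 (adjusted p = 0.00139). WARS1, for tryptophan and also an interferon-induced gene, read 11.22, 11.22 and 11.21 against 10.92, 10.89 and 10.71, and rose by 0.38 ± 0.07 (adjusted p = 0.00601). In all 3 the treated Lo cells lay above the 9 other arrays.

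XPOT, the exporter of tRNA from the nucleus, read 11.30, 11.24 and 11.29 in Lo pemetrexed cells against 11.10, 11.04 and 10.90 in Lo control cells. It passed with 12 arrays at 0.26 ± 0.07 (limma, adjusted p = 0.0343) but not with 10, at 0.21 ± 0.07 (adjusted p = 0.111). The call was also lost when Lo control replicate 2, Lo control replicate 3 or any 1 of the Lo pemetrexed arrays was left out, with an adjusted p of up to 0.149. GARS1, for glycine, changed by 0.27 ± 0.09 (adjusted p = 0.0604), MARS1, for methionine, by 0.11 ± 0.08, and the bifunctional glutamyl-prolyl synthetase EPRS1 by 0.02 ± 0.10, and none of them passed.

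Of the 11 members with CARE letters in the promoter window, 6 rose in treated Lo cells (ATF3, CEBPG, CHAC1, SLC3A2, SLC1A5 and AARS1), and of the 19 members with a window and no match, 10 rose. GARS1 and ASNS carry the letters upstream of the start and did not pass with 12 arrays. DDIT3, which moved furthest, and SESN2, SLC7A5 and TRIB3 had no match in the window. The letters can lie elsewhere in a gene, and other windows were not searched.

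The same dose in folate-replete cells was examined by Hi pemetrexed against Hi control arrays. Of the 34 members, 0 passed in either direction (limma), as was true of 0.0% of all 18417 genes. At an unadjusted p under 0.05, 1 member was named with 12 arrays, ATF3, which was lower at -0.25 ± 0.11, and 0 were with 10. For comparison, 266 of all genes reached that unadjusted level with 12 arrays. Members' changes ran from -0.44 (STC2) to 0.21 (SLC7A11) with 12 arrays, with a median of -0.01. With 10 arrays the changes ran from -0.19 (ATF3) to 0.26 (CEBPB), with a median of -0.04, and STC2 stood at -0.16. DDIT3 changed by -0.23 ± 0.24, with a 95% interval of -0.76 to 0.30, and by 0.12 ± 0.13 with 10 arrays. PPP1R15A changed by 0.10 ± 0.09 (95% interval -0.08 to 0.29), SESN2 by 0.00 ± 0.08 (-0.17 to 0.18) and SLC7A5 by -0.07 ± 0.10 (-0.29 to 0.16). For these 4 genes the upper bounds lie under the changes measured in Lo cells. Of the members, 0 had all Hi pemetrexed arrays above all Hi controls, as did 2.48% of all genes, and XPOT and GARS1 had them all below, as did 2.96% of all genes.

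**Figure D3:**
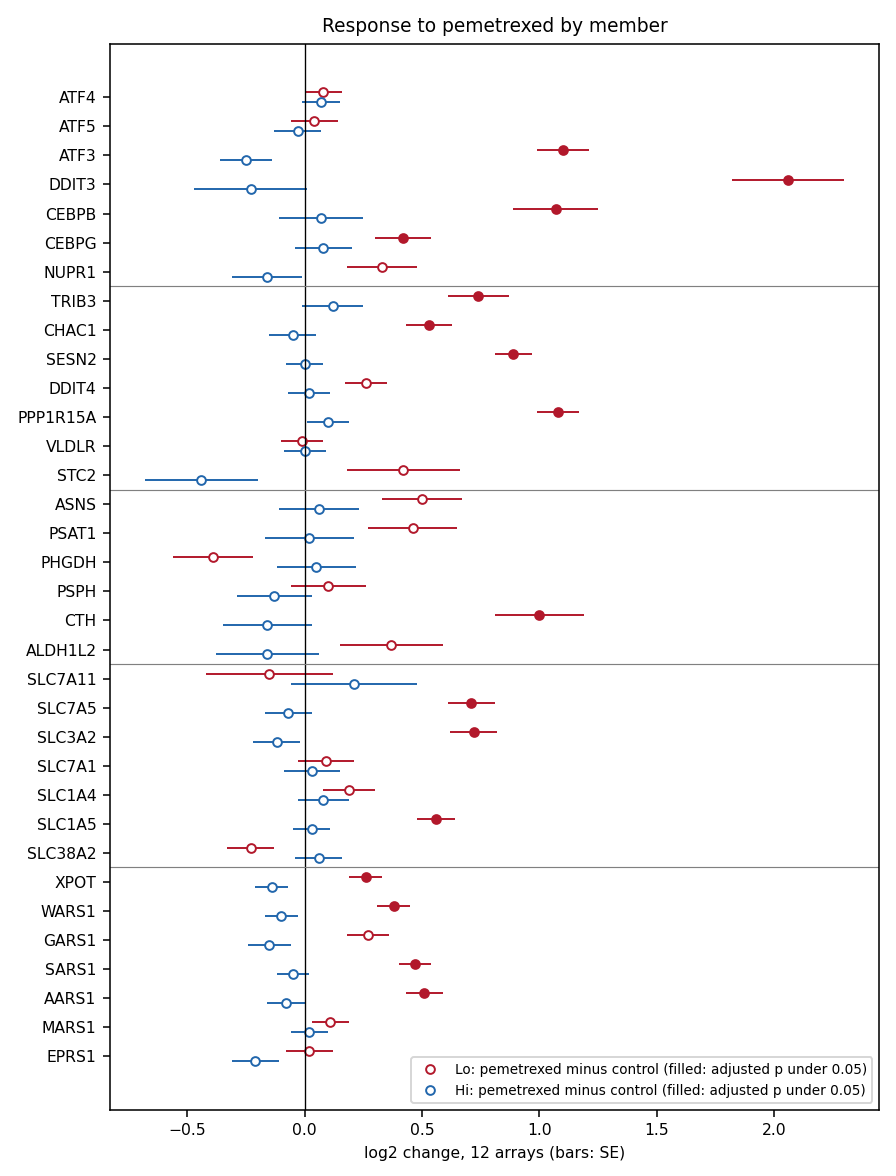
Log2 change under pemetrexed for each of the 34 members with 12 arrays, as treated minus control, in Lo cells (red) and in Hi cells (blue). Points are fitted changes, horizontal bars are SE, and filled points have a limma adjusted p under 0.05. A total of 16 red points are filled, with DDIT3 at 2.06 the farthest to the right, and the blue points lie between -0.44 and 0.21 with 0 filled.

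Whether the responses of Lo and Hi cells differed was tested directly, as the Lo response minus the Hi response. Of the members, 14 had a larger response in Lo cells and 0 a smaller one (limma), against 2.57% and 2.24% of all genes, or 4.81% in either direction. The median difference was 0.46 over the members and 0.02 over all genes. DDIT3 differed by 2.29 ± 0.35 (adjusted p = 0.00342), ATF3 by 1.35 ± 0.15 (adjusted p = 0.000597), PPP1R15A by 0.98 ± 0.12 (adjusted p = 0.00109) and SESN2 by 0.88 ± 0.11 (adjusted p = 0.00133). These differences became 1.78 ± 0.18, 1.18 ± 0.13, 0.99 ± 0.13 and 0.75 ± 0.10, in that order, with 10 arrays. With 10 arrays 13 members passed, all with a larger response in Lo cells, against 2.02% of all genes with a larger and 2.14% with a smaller one, and 11 of them were among the 14. CEBPB (0.72, adjusted p = 0.122), WARS1 (0.38, adjusted p = 0.0643) and XPOT (0.33, adjusted p = 0.124) no longer passed, and ASNS (0.78, adjusted p = 0.012) and TRIB3 (0.80, adjusted p = 0.0297) did. The count fell to 9 without Hi pemetrexed replicate 2, without Lo pemetrexed replicate 1 or without Lo pemetrexed replicate 2. ATF3, DDIT3, SESN2, PPP1R15A, SLC3A2, SARS1 and AARS1 passed in every alternative fit that measured them. CHAC1 lost its call in 9 of the 12 fits that left out 1 array (adjusted p up to 0.0994) and CTH in 7 (up to 0.0861). For SLC1A5 the difference of 0.53 ± 0.11 became 0.30 with the mean of its probe sets and did not pass (adjusted p = 0.155).

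Treated cells of both folate levels were compared next, as Lo pemetrexed against Hi pemetrexed. This comparison shares its Lo pemetrexed arrays with the drug response above. Of the members, 18 were higher in Lo pemetrexed cells and 0 lower (limma), where 11.3% of all genes were higher and 11.0% lower. The median difference was 0.51 over the members and 0.01 over all genes. With 10 arrays, which change only the estimate of the spread here, 22 were higher and 2 lower, where 13.7% of all genes were higher and 27.7% were called in either direction. Lo pemetrexed cells exceeded Hi pemetrexed cells by 2.45 ± 0.24 for DDIT3 (adjusted p = 5.5e-05), by 1.31 ± 0.11 for ATF3, by 1.19 ± 0.19 for CTH and by 1.10 ± 0.18 for CEBPB.

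Several members stood higher in Lo pemetrexed than in Hi pemetrexed cells without having passed as a drug response. STC2 read 9.18, 9.26 and 9.37 on the Lo pemetrexed arrays against 7.86, 8.05 and 8.27 on the Hi pemetrexed arrays, a difference of 1.21 ± 0.24 (limma, adjusted p = 0.00374). GARS1 differed by 0.52 ± 0.09 (adjusted p = 0.00122), NUPR1 by 0.54 ± 0.15 (adjusted p = 0.0183) and PSAT1 by 0.61 ± 0.19 (adjusted p = 0.0341). For NUPR1 the call was lost in 4 of the 12 fits that left out 1 array, and for PSAT1 in 5 of them, with adjusted p of up to 0.0727 and 0.124. The 2 members that were lower with 10 arrays were transporters: SLC7A11 at -0.64 ± 0.15 (adjusted p = 0.00719) and SLC38A2 at -0.29 ± 0.08 (adjusted p = 0.0169). With 12 arrays their adjusted p-values were 0.107 and 0.0532.

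Untreated cells were compared as Lo control against Hi control, and here both arrays that stood apart enter the means. With 12 arrays 0 members passed (limma), as did 0.0% of all genes, 387 of which had an unadjusted p under 0.05, though 0 of the members did. With 10 arrays, and thus 2 controls at each folate level, 3 members were higher in Lo control cells and 1 was lower, where 3.67% of all genes were higher and 3.5% lower (7.17% in either direction). STC2 read 9.15 and 9.10 on the Lo control arrays in place against 8.06 and 8.37 on the Hi control arrays in place, a difference of 0.91 ± 0.13 (adjusted p = 0.00138). The arrays that stood apart read 8.32 for Lo control replicate 3 and 9.05 for Hi control replicate 3. For STC2, each was thus at the level of the other folate group. DDIT3 was higher by 0.67 ± 0.14 (adjusted p = 0.014) and PSPH by 0.47 ± 0.08 (adjusted p = 0.00404). SLC7A11 was lower, at -0.84 ± 0.19 (adjusted p = 0.0177), with 10.73 and 11.04 on the Lo control arrays in place against 11.53 and 11.91 on the Hi control arrays in place. The other 30 members did not pass, and the members' median was 0.08 with 10 arrays and 0.03 with 12.

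**Figure D4:**
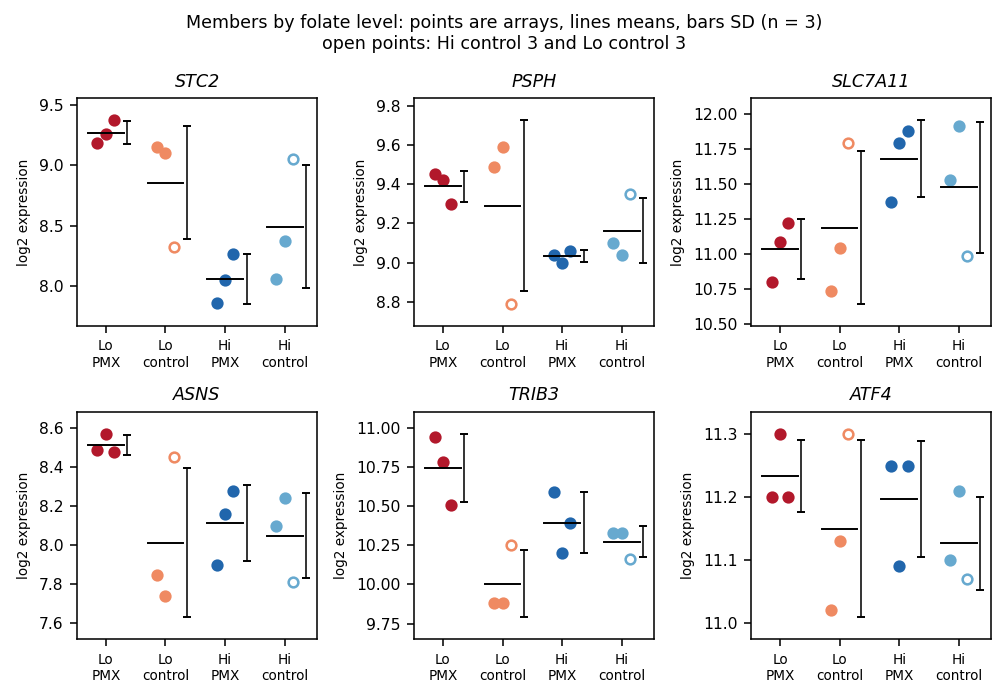
Log2 expression of STC2, PSPH, SLC7A11, ASNS, TRIB3 and ATF4 by group. Points are arrays, horizontal lines are group means, vertical bars are SD (n = 3), and open points are the arrays labelled Lo control 3 and Hi control 3. For STC2, PSPH and SLC7A11 the open points sit at the level of the other folate group, and the ATF4 groups overlap between 11.02 and 11.30.

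The members were also read as a whole on each array. Set against each gene's mean in Hi pemetrexed cells, the median over the 34 members was 0.53, 0.50 and 0.46 on the Lo pemetrexed arrays. It was 0.09, 0.07 and 0.06 on the Lo control arrays, between -0.05 and 0.05 on the Hi pemetrexed arrays, and between -0.04 and 0.11 on the Hi control arrays. The Lo pemetrexed arrays lay above the other 9 on this measure, and the arrays that stood apart, at 0.06 for Lo control replicate 3 and 0.11 for Hi control replicate 3, lay near the other untreated arrays.

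Genes upstream of ATF4 and further genes of the pathway were read from separate lists. The 4 eIF2 alpha kinases did not pass in treated Lo cells: EIF2AK1 (HRI) stood at -0.03 ± 0.09, EIF2AK2 (PKR) at 0.43 ± 0.19 (limma, adjusted p = 0.202), EIF2AK3 (PERK) at 0.07 ± 0.10 and EIF2AK4 (GCN2) at -0.04 ± 0.11. These kinases act through their activity, which mRNA does not show. EIF2AK2 was higher by 0.90 ± 0.19 in Lo pemetrexed than in Hi pemetrexed cells (adjusted p = 0.00568) and, with 10 arrays, by 0.60 ± 0.16 in Lo control than in Hi control cells (adjusted p = 0.0407). Of the 16 genes of eIF2 and its kinases, 2 rose in treated Lo cells and 0 fell, against 5.6% and 5.14% of all genes. They were PPP1R15B, the constitutive counterpart of PPP1R15A, at 0.33 ± 0.08, and EIF2S1, eIF2 alpha itself, at 0.29 ± 0.07. With 10 arrays only PPP1R15B passed.

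Of 22 other ATF4 targets, 8 rose in treated Lo cells and 1 fell, against 5.6% and 5.14% of all genes, with a median of 0.13. The growth factor VEGFA read 9.36, 9.27 and 9.44 on the Lo pemetrexed arrays against 8.64, 8.54 and 8.33 on the Lo control arrays, and rose by 0.85 ± 0.10 (limma, adjusted p = 0.00022). The transcription factor NFIL3 read 9.34, 9.42 and 9.61 against 8.75, 8.80 and 8.79, and rose by 0.68 ± 0.08 (adjusted p = 0.000175). In both, treated Lo cells lay clear of all other arrays. The stress hormone GDF15, also a target of p53, rose by 0.45 ± 0.07, and the autophagy receptor SQSTM1 by 0.40 ± 0.08. TXNIP, which restrains glucose uptake and is named here as the one target that fell, read 10.24, 10.0 and 9.87 in Lo pemetrexed cells against 10.48, 10.53 and 10.85 in Lo control cells. It fell by 0.58 on the log2 scale (SE 0.12, limma, adjusted p = 0.00763), with no overlap.

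The counts of other transporters and synthetases in treated Lo cells are read against the 5.6% of all genes that rose with 12 arrays and the 5.21% that rose with 10. Of 21 other amino acid transporters, 3 rose and 0 fell, with a median of 0.06: SLC38A4 by 0.92 ± 0.16, SLC7A8 (LAT2) by 0.55 ± 0.10 and SLC7A6 by 0.27 ± 0.08. Of 14 other cytosolic synthetase genes, 3 rose with 12 arrays (TARS1 by 0.30 ± 0.08, YARS1 by 0.34 ± 0.10 and FARSA by 0.24 ± 0.07), and 1 with 10 arrays (CARS1, by 0.32 ± 0.09). Their median was 0.23, near the 0.27 of the listed tRNA genes. Of 16 mitochondrial synthetases, 2 rose (MARS2 by 0.53 ± 0.11 and CARS2 by 0.45 ± 0.11), with a median of -0.01.

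The IRE1 and ATF6 arms of the unfolded protein response, which run beside the PERK arm that leads to ATF4, had 3 of 21 genes higher and 0 lower in treated Lo cells, against 5.6% and 5.14% of all genes, with a median of 0.01. ERN1, the gene of IRE1, read 10.36, 10.46 and 10.25 on the Lo pemetrexed arrays against 9.50, 9.63 and 9.38 on the Lo control arrays, and rose by 0.85 ± 0.08 (limma, adjusted p = 4.82e-05). DNAJB9 rose by 0.44 ± 0.11 and SYVN1 by 0.30 ± 0.08. With 10 arrays PDIA6 fell, by 0.42 on the log2 scale (SE 0.10). The chaperone HSPA5 and the factor XBP1 were higher in Lo pemetrexed than in Hi pemetrexed cells, by 0.61 ± 0.17 and 0.88 ± 0.15, a comparison in which 11.3% of all genes were higher. With 10 arrays both were also higher in Lo control than in Hi control cells, by 0.59 ± 0.09 and 0.52 ± 0.13, as were 3.67% of all genes.

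**Figure D5:**
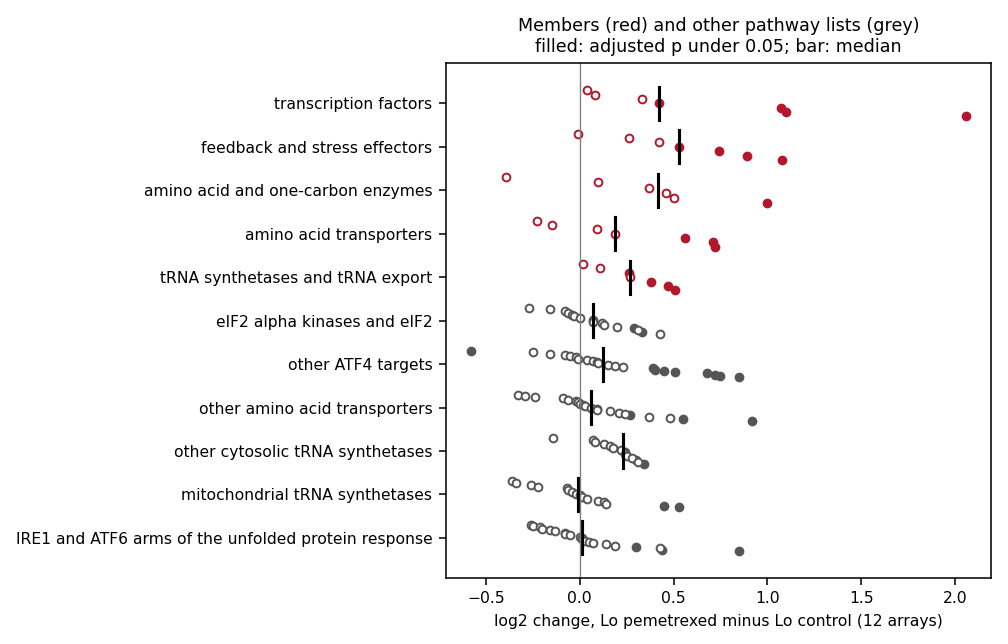
Log2 change in Lo cells (Lo pemetrexed minus Lo control, 12 arrays) of the 5 member subgroups (red) and of 6 other lists of related genes (grey). Each point is a gene, filled where the limma adjusted p was under 0.05, and black bars are list medians. The subgroup medians run from 0.19 for the transporters to 0.53 for the feedback genes, and the medians of the other lists from -0.01 to 0.23.

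Markers of cell identity moved in the same comparison. Of 8 endothelial markers, 0 rose and 4 fell in treated Lo cells (TEK, ERG, EGFL7 and CDH5), and 5 fell with 10 arrays, where 5.14% and 5.74% of all genes fell. All 8 were lower in Lo pemetrexed than in Hi pemetrexed cells, as were 11.0% of all genes. Their mean log2 level was 10.13 to 10.23 on the Lo pemetrexed arrays and 10.59 to 11.34 on the Lo control arrays. It was 11.28 to 11.48 on the Hi pemetrexed arrays and 10.58 to 11.53 on the Hi control arrays. The 11.34 came from Lo control replicate 3 and the 10.58 from Hi control replicate 3, the arrays that stood apart. With 10 arrays 4 of the 8 were lower in Lo control than in Hi control cells, as were 3.5% of all genes, and with 12 arrays 0 were. The markers' median change in treated Lo cells was -0.67 with 12 arrays and -0.38 with 10. Between Lo pemetrexed and Lo control cells, 0 of 8 epithelial and 0 of 7 fibroblast and smooth muscle markers were called, and 1 of 5 leukocyte markers, LYZ, was lower. Between Lo pemetrexed and Hi pemetrexed cells, EPCAM was higher by 0.38 ± 0.12 and ACTA2 by 0.81 ± 0.15, KRT8 was also higher with 10 arrays, and LYZ was lower. The files give no detection call, so no marker can be said to be absent, and the part of these shifts in the changes of the ATF4 pathway genes was not tested. In RNA of whole cultures, fewer cells expressing a gene and less RNA per cell cannot be told apart.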

How the data were processed

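Total RNA of 12 cultures was hybridised to Affymetrix whole-transcript arrays, 1 per sample. The deposited values are log2 expression levels, one per probe set and array, which the authors obtained by RMA (Partek 6.5), as named per the submitters' processing notes. The RMA settings and the annotation's build are not given in the sources used here. Of 33297 probe sets, 19460 had 1 gene symbol in the array annotation, and 19429 of their Entrez identifiers matched RefSeq (GRCh38.p14). For the 769 genes with several probe sets the brightest was used, without further normalization or filter on dim genes.

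For each of 18417 genes, limma 3.58.1 (R 4.3.3) fitted one mean per group to the 12 arrays with moderated variances (8 residual degrees of freedom, or 6 with 10 arrays). Calls needed a two-sided Benjamini-Hochberg adjusted p under 0.05 within a contrast. The script was tested on simulated data. The replicates, biological per the labels, are cultures of 1 line, and p-values cover only their spread.

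The members, lists and the choice to leave out 2 arrays were made with earlier results of these data known. Any member could be named. From each other list and contrast up to 4 called genes with the smallest p were named, plus the eIF2 alpha kinases. CARS1, PDIA6, HSPA5, XBP1 and LYZ met that rule in the contrast and array set given. Replicate numbers were checked as a block: with 12 arrays 11 of 18 same-numbered pairs had deviations correlating above 0.1 (-0.656 to 0.514), so they were not taken as pairs. With 10 arrays all 13 such pairs did, and 8 arrays were best matched by their own number. The block was fitted as an alternative only. Alternatives left out each array, used the block, fitted only the groups compared, quantile-normalized, median-centred, dropped dim genes, averaged probe sets, used a variance trend or no moderation. Some items are not reported here.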

Additional observations from a re-analysis of the deposited data

Results flagged for a closer look

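For 14 members the response to pemetrexed differed between Lo and Hi cells, tested as the Lo response minus the Hi response with limma (Benjamini-Hochberg adjusted p under 0.05 over all genes, 12 arrays). Of all genes, 2.57% had a larger response in Lo cells and 2.24% a smaller one. Among the transcription factors the difference on the log2 scale was 2.29 for DDIT3, 1.35 for ATF3 and 1.00 for CEBPB. Among the feedback and stress effectors it was 0.98 for PPP1R15A, 0.88 for SESN2 and 0.57 for CHAC1, and among the enzymes 1.16 for CTH. The transporter genes SLC3A2, SLC7A5 and SLC1A5 differed by 0.84, 0.78 and 0.53, and the tRNA genes AARS1, SARS1, WARS1 and XPOT by 0.59, 0.53, 0.48 and 0.40. CEBPB, WARS1 and XPOT did not pass with 10 arrays. There the difference was 1.78 for DDIT3, 1.18 for ATF3, 0.84 for CTH and 0.75 for SESN2. It was 0.99 for PPP1R15A and 0.67 for CHAC1. With 1 array left out, the call of CHAC1 was lost in 9 of 12 fits (adjusted p up to 0.0994), that of CTH in 7 (up to 0.0861), that of CEBPB in 9 (up to 0.116), that of XPOT in 10 (up to 0.108) and that of WARS1 in 5 (up to 0.059). With the mean of its probe sets SLC1A5 differed by 0.30 and did not pass (adjusted p = 0.155), and SLC7A5 did not pass without moderation (adjusted p = 0.0557). In Hi cells 0 of the 14 had changed past the threshold, as had 0.0% of all genes.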

How the results depend on the processing

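Over all alternatives, 3525 of 3681 values of single members kept their side of the threshold, 85 lost a call, 71 gained one and 0 called values changed sign. In treated Lo cells 14 of the 16 members that rose passed in every alternative in which they were measured, and CEBPG and XPOT did not. Their count ran from 14 to 16 with single arrays left out (0 lower throughout, median 0.34 to 0.42). It was 17 with 10 arrays. PHGDH was called lower, 1 member, when only the 2 groups compared were fitted. In Hi cells 0 passed in any alternative, with medians of -0.10 to 0.00 with single arrays left out. For treated Lo against treated Hi cells, left-out arrays gave 16 to 21 higher, 0 to 1 lower and medians of 0.44 to 0.52. There 2 were lower with 10 arrays, with the block and 10 arrays, or with only those groups, and 1 with the block, above the median level or with a variance trend. For Lo against Hi controls, left-out arrays gave 0 calls and medians of -0.01 to 0.05, 10 arrays gave 3 higher and 1 lower, and the block on 10 arrays gave 4 higher and 3 lower. The interaction gave 9 to 13 higher with single arrays left out (median 0.40 to 0.51) and 9 without moderation. The cause of these shifts was not tested, apart from fewer arrays or groups in a fit.

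With the replicate number as a block on 10 arrays, where all 13 same-numbered pairs correlated above 0.1 (0.115 to 0.543), the median of the members in treated Lo cells was 0.32, against 0.40. The deviations of a group left with 2 arrays mirror each other, so pairs that include such a group are no independent check of the pairing. Dim genes cannot be told from undetected ones, since no background signal is given.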
